A study of Homo sapiens with 2 samples.

Results

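The paired-box (PAX) genes encode transcription factors that share a DNA-binding paired domain, and all 9 human members, PAX1 to PAX9, were taken by Entrez number from a table of 25702 gene features. RNA had been sequenced, as 1 library per group, from the human leukaemia line REH (labelled REH-R), which derives from precursor B-cell acute lymphoblastic leukaemia (B-ALL). In one group a tet-regulated cassette carried PAX5 followed by an IRES, a sequence that lets a second protein be made from the same transcript, and the fluorescent marker GFP, and in the control group it carried the IRES and GFP only. Both groups were given 1 µg/mL doxycycline for 3 days and sorted for GFP-positive cells, so the drug, the GFP and the sort were common to both. The sources used here do not say whether the lines were clones or pools. With no replicate cultures, no p-value is given. Every interval below reflects counting error alone and sets 1 library against the other, not the conditions.

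PAX proteins fall into 4 subgroups by their domains: PAX1 and PAX9, PAX2 with PAX5 and PAX8, PAX3 and PAX7, and PAX4 and PAX6. PAX5, also called BSAP, is the member of the B lineage, where it commits progenitors by activating B-cell genes and repressing genes of other lineages. The other members are known mainly from embryonic organs, such as the thyroid and kidney (PAX8 and PAX2), the eye and pancreas (PAX6), and muscle and neural crest (PAX3 and PAX7).

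Because the members share a paired box, the coding sequences were compared first, to show how far a read of PAX5 differs from its relatives. The 60 bases of PAX5 coding sequence with the highest summed identity to the other members were bases 149 to 208, in exon 2 of 10 of the GENCODE transcript on the minus strand (chr9:37020640-37020699, GRCh38), within the stretch that encodes the paired domain. Each line gives the best ungapped match of a member 5′ to 3′, with bases that differ from PAX5 in capitals.
PAX5: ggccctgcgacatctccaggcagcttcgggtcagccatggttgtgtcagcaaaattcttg
PAX2: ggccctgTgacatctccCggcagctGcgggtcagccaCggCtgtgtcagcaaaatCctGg
PAX8: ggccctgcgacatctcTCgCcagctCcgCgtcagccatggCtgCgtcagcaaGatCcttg
PAX7: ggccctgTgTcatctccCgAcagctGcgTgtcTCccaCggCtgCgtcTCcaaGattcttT
PAX9: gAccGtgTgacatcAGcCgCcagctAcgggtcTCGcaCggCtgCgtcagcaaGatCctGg
PAX1: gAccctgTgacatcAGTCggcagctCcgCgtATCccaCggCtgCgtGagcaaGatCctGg
PAX3: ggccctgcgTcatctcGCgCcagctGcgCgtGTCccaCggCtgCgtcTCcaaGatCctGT
PAX4: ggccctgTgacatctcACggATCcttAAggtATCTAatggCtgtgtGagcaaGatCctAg
PAX6: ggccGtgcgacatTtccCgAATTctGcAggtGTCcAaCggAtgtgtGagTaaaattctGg

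In this window of highest summed identity, PAX2 differed from PAX5 at 7 of 60 bases and PAX8 at 9. The closest window for each member alone was not sought. PAX7 differed at 15, PAX9 at 17, and PAX1, PAX3, PAX4 and PAX6 at 18 each. The longest run of identical bases that PAX5 shared with another member anywhere in the coding sequence was 21 bases long, with PAX8.
PAX8 shared run: accatgtttgcctgggagatc
The corresponding longest run was 14 bases with PAX2 and with PAX6, 15 with PAX1, and 10 to 13 with the other members. The sources used here give neither the read length nor the treatment of reads matching several genes.

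PAX5 (Entrez 5079, chromosome 9) had 8319 counts in the PAX5-IRES-GFP library and 2660 in the control library. These counts are 699.7 CPM (counts per 1000000 after scaling; 95% Poisson interval 685 to 715) and 241 CPM (232 to 250.1). The first library was therefore the higher, and the control cells also held PAX5 transcript. The ratio was 2.91-fold (exact Clopper-Pearson interval 2.78 to 3.04), or 1.54 on the log2 scale (1.48 to 1.60). In bulk RNA, more cells with a transcript cannot be told apart from more transcript per cell. Reads of the cassette and of the endogenous gene are summed in 1 count.

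The rule of size for a call asked for at least 10 counts over both libraries and for an interval that lay wholly at or past 2-fold, in either direction. Of 9 members, 2 reached 10 counts, PAX5 and PAX6, and 1 of these, PAX5, was called higher. Over all 13532 features with at least 10 counts, 1.34% were called higher (182) and 0.0517% lower (7). PAX5 is the introduced gene, so its call is a check of the labels.

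**Figure D1:**
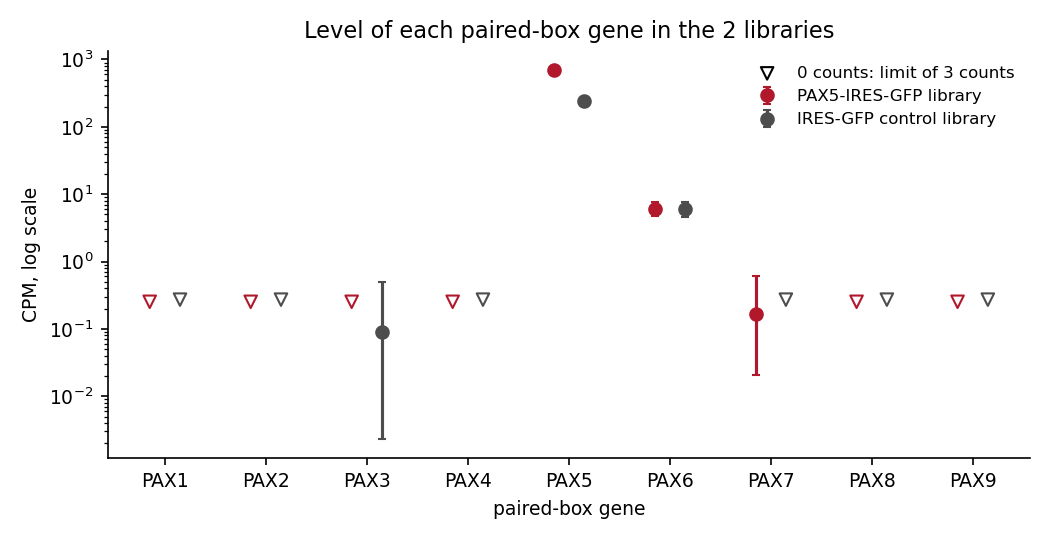
CPM on a log scale for the 9 paired-box genes in the PAX5-IRES-GFP library (red) and the IRES-GFP control library (grey), 1 library each. Bars are 95% Poisson intervals, and open triangles mark 0 counts, drawn at the limit of 3 counts. PAX5 stands at 699.7 and 241 CPM, PAX6 at 5.97 CPM in both, and all others at or below 2 counts.

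PAX6 (Entrez 5080, chromosome 11), the regulator of eye and pancreatic islet development, was the other member measured. It had 71 counts in the PAX5-IRES-GFP library (5.97 CPM, interval 4.66 to 7.53) and 66 in the control library (5.97 CPM, 4.62 to 7.60). The 2 values overlapped almost fully: the ratio was 1.00-fold with an interval of 0.705 to 1.42, so a difference of 2-fold in either direction lay outside its counting error. ELP4, an Elongator subunit gene with 345 and 354 counts, and the antisense gene PAX6-AS1, with 0 counts in both libraries, overlap PAX6 in the RefSeq annotation. The sources used here do not state the strand setting of the counting, so PAX6 and ELP4 reads cannot be fully told apart.

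The PAX2/5/8 relatives of PAX5 were not detected. PAX2, a kidney and optic stalk gene, and PAX8, a thyroid and kidney gene, had 0 counts in both libraries, as did PAX8-AS1. A count of 0 allows up to 0.252 CPM in the PAX5-IRES-GFP library and 0.272 CPM in the control library (3 counts). The 8319 counts of PAX5 thus stood beside 0 counts for both of the members whose paired boxes are closest in sequence.

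The remaining members were at or near 0. PAX1, a gene of the developing vertebral column, PAX4, a gene of pancreatic islet development, and PAX9, a gene of tooth and pharyngeal pouch development, had 0 counts in both libraries, under the same limits. PAX3, a neural crest and muscle precursor gene, had 0 counts in the PAX5-IRES-GFP library and 1 in the control library. PAX7, a gene of muscle satellite cells, had 2 and 0 counts. Both lay under the limit of 3 counts in either library, and no fold is given. In all, 5 of 9 members had 0 counts in both libraries, PAX5 and PAX6 had counts in both, and PAX3 and PAX7 each had counts in 1 library only. Over all features, 63.9% had a count in the PAX5-IRES-GFP library and 62.2% in the control library.

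PAX5 made up 99.1% of the 8392 PAX-family counts in the PAX5-IRES-GFP library (exact Clopper-Pearson interval 98.9 to 99.3) and 97.5% of 2727 in the control library (96.9 to 98.1). PAX6 made up 0.846% (0.661 to 1.07) and 2.42% (1.88 to 3.07). The smaller share of PAX6 in the first library stood beside the same PAX6 CPM and a larger PAX5 count.

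Levels of different genes were compared per length, as RPKM (CPM per 1000 bases of the deposited gene length). PAX5, with a length of 3650 bases, had 192 RPKM in the PAX5-IRES-GFP library and 66.0 RPKM in the control library. The first value is 20.2 times the median of features with at least 10 counts in that library (9.49 RPKM), and the second is 7.05 times the median in the control library (9.35 RPKM). PAX5 was therefore already among the higher transcripts without the PAX5 cassette.

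By rank, PAX5 was number 261 of 25702 features in the PAX5-IRES-GFP library, above 99.0% of them, and number 1220 in the control library, above 95.3%. The nearest named genes in the first order were TPX2, a spindle assembly factor (193 RPKM), just above and CXCR4, a chemokine receptor (191 RPKM), just below. In the control order they were PDS5A, a cohesin regulator, and RNF167, a ubiquitin ligase, at 66.0 and 65.9 RPKM. The transcript of the cassette may be shorter than the deposited length. With PAX5 set to its coding length of 1176 bases, its level became 595 RPKM (rank 61) in the PAX5-IRES-GFP library. The same length gave 205 RPKM (rank 257) in the control library. The control cassette carried no PAX5, so a shorter cassette transcript gives no reason for that value. PAX6 lay far lower, at 0.836 and 0.837 RPKM, above 53.6% and 54.1% of all 25702 features. Among features with at least 10 counts only, PAX6 lay above 13.1% in the PAX5-IRES-GFP library and 14.0% in the control library. On that base PAX5 lay above 98.1% and 91.0%.

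**Figure D2:**
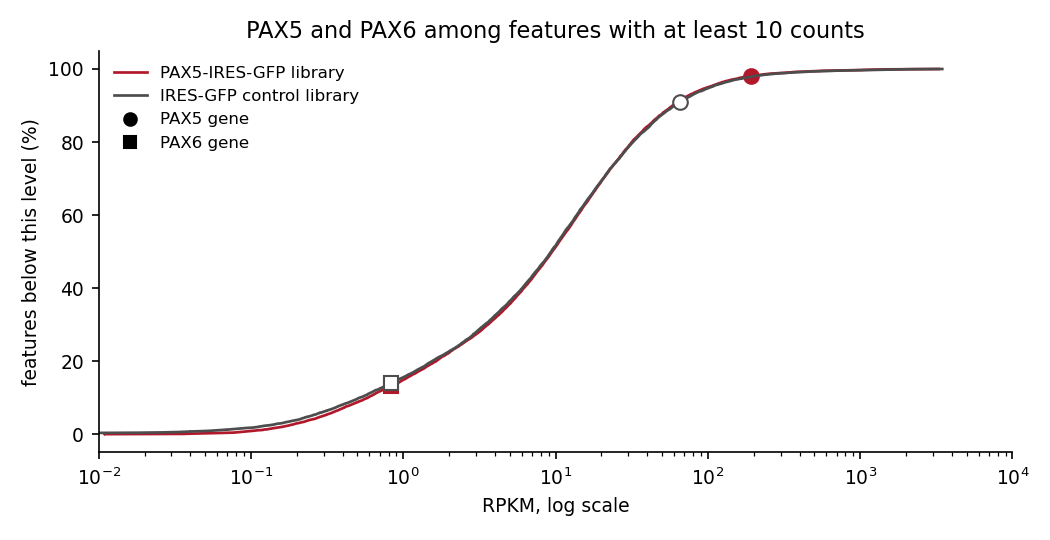
Percentage of features with at least 10 counts that lie below each RPKM value (log scale), for the PAX5-IRES-GFP library (red line) and the control library (grey line), which nearly coincide. Circles mark PAX5 and squares PAX6, filled for the PAX5-IRES-GFP library and open for the control library: PAX5 lies at 192 and 66.0 RPKM, and PAX6 near 0.84 RPKM in both.

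Set beside all other features, PAX5 combined a high control level with a large ratio. Of the 182 features called higher, PAX5 had the highest control level per length and the most counts in the PAX5-IRES-GFP library. The median control level of these 182 was 0.123 RPKM, and 43 of them had 0 control counts. Next to PAX5 by control level came TERF2, a telomere-binding protein gene (24.0 RPKM), and BACH2, a B-cell transcription factor gene (23.2 RPKM). Of 1219 other features at or above the control level of PAX5 per length, 0 had a larger ratio and 0 were called higher. By lower bound of the ratio, PAX5 was number 111 of the 182.

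**Figure D3:**
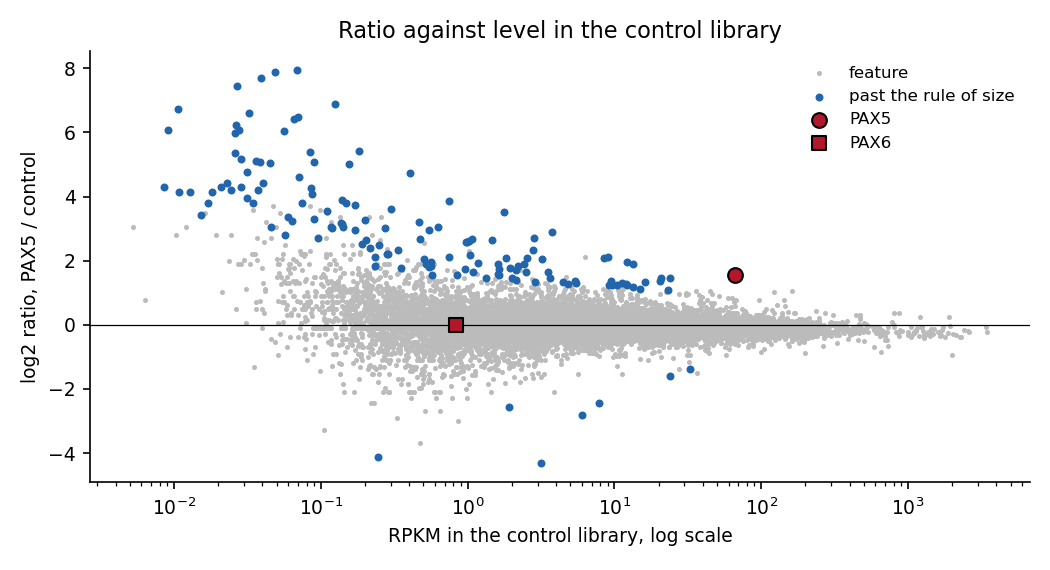
Log2 ratio of the PAX5-IRES-GFP library over the control library against control RPKM (log scale) for features with at least 10 counts and at least 1 in each library. Blue points are past the rule of size, and PAX5 (circle) and PAX6 (square) are red. PAX5, at 1.54 and 66.0 RPKM, lies to the right of every other feature called higher, and PAX6 lies at 0.

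Among the 5339 features with at least 1000 counts, 97.1% had a ratio within 1.5-fold, and PAX5 had the 7th largest ratio. Named after their values were seen, the 5 of the 6 above it with a symbol were EMP2 (7.43-fold), ICOSLG (4.37-fold), FAM53B (2441 and 540 counts), CD72 (3.92-fold) and CTIF (3.15-fold). Each of these had under 10 RPKM in the control library except CD72, at 12.2 RPKM. By gain in CPM, PAX5 was number 2 of all features, with a difference of 459 CPM. Only MME, the gene of the precursor B-cell surface enzyme CD10, gained more, with 599 CPM at a ratio of 1.70-fold. By gain per length, PAX5 was number 6, with a difference of 126 RPKM. The 5 above it, also named after their values were seen, were B2M, HLA-B, HLA-DRA, CD74 and CD52.

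The 5 named genes nearest to PAX5 in the plane of log2 CPM in the 2 libraries were AKAP12 (distance 0.41), COL5A1 (0.46), GSE1 (0.61), BACH2 (0.63) and PRKCB (0.70). Likeness over 2 libraries reflects level and ratio only. All 5 had smaller ratios than PAX5, from a log2 ratio of 0.59 for PRKCB, a protein kinase C gene, to 1.09 for BACH2. The scaffold gene AKAP12 had 7814 and 3511 counts and a ratio of 2.07-fold (1.99 to 2.15).

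PAX5 was then placed among 23 other transcription factors of the B lineage, per length. In the control library PAX5 was number 11 of 24, at 66.0 RPKM (95% Poisson interval 63.5 to 68.5). Its neighbours there were SPI1, the gene of PU.1, at 69.2 RPKM (65.1 to 73.4), whose interval overlapped that of PAX5, and FOXO1 at 52.8 RPKM (51.0 to 54.6). In the PAX5-IRES-GFP library PAX5 was number 3, at 192 RPKM (188 to 196). There it followed LEF1 (233 RPKM), a Wnt pathway factor, and MYB (210.0 RPKM, 206 to 214), and it stood above TCF3, the E2A gene (166 RPKM, 162 to 169). None of these 3 intervals overlapped that of PAX5. This order rests on the deposited lengths. With PAX5 alone set to its coding length, it had 595 RPKM in this library, above LEF1.

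**Figure D4:**
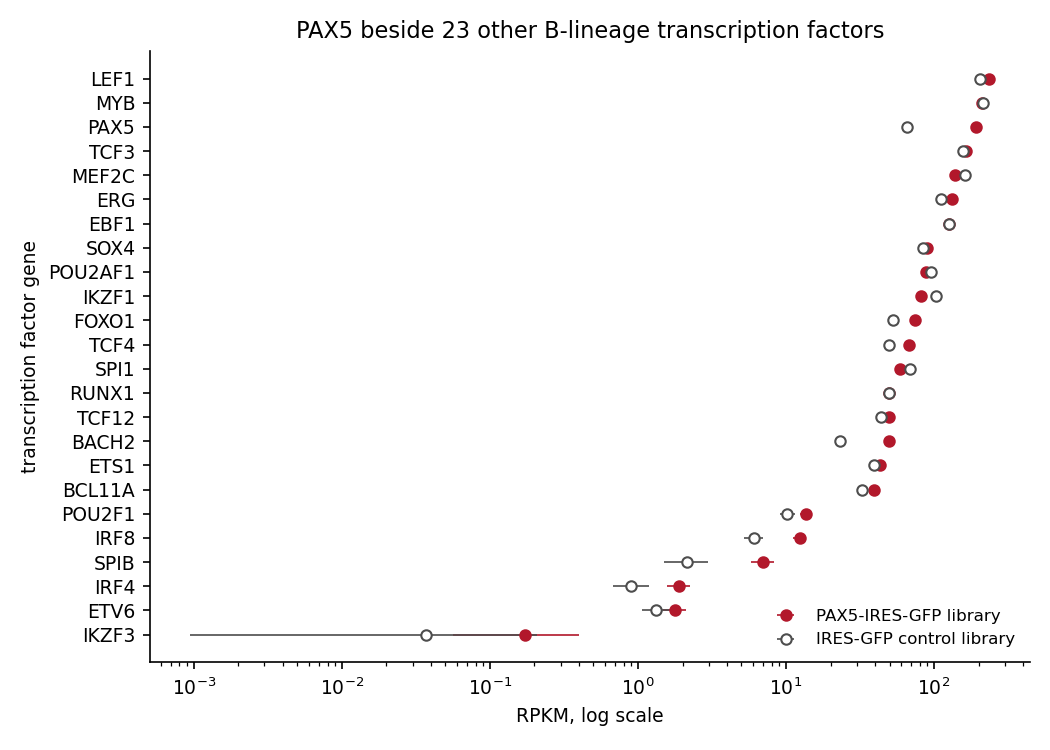
RPKM on a log scale of PAX5 and 23 other B-lineage transcription factor genes, ordered by level in the PAX5-IRES-GFP library (filled red), with the control library as open grey circles and 95% Poisson intervals as bars. PAX5 moves from 66.0 to 192 RPKM, from place 11 to place 3, and EBF1 stays at 126 and 127 RPKM. Levels and places use the deposited gene lengths.

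Of these 23 factors 22 had at least 10 counts, and 2 of them were called higher and 0 lower, beside 1.34% of all features called higher. They were BACH2 (2.13-fold, 2.03 to 2.24) and SPIB, an Ets factor (3.24-fold, 2.21 to 4.86), both below PAX5 in level. The median log2 ratio of the 22 was 0.18, beside -0.01 over all 13532 features, and it was 0.10 after the median of features of like length was subtracted from each gene. EBF1, which acts with PAX5 in early B cells, had a log2 ratio of 0.01 (-0.04 to 0.05) from 7945 and 7354 counts. TCF3 had 0.08, LEF1 0.19, MYB -0.03, MEF2C -0.23 and IKZF1 -0.34. Of the 22 intervals, 15 lay above 0 and 4 below, with MEF2C and IKZF1 among the 4.

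The factors known to act on the PAX5 gene itself were a list of 6, EBF1, SPI1, IRF4, IRF8, NFKB1 and RELA. None was called in either direction, beside 1.4% of all features, and 3 had intervals above 0 and 1 below. SPI1 had a log2 ratio of -0.23 (-0.35 to -0.10), from 988 and 1076 counts. NFKB1 had 0.21 (0.10 to 0.31) and RELA -0.03 (-0.14 to 0.09). The weakly expressed IRF4 (119 and 53 counts) had a ratio of 2.09-fold (bounds 1.497 and 2.94) and IRF8 (393 and 178 counts) one of 2.05-fold (1.71 to 2.46). Over all features, 18.7% had intervals above 0 and 16.8% below.

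Genes next to PAX5 on the chromosome had ratios near 1. ZCCHC7, the neighbour on the promoter side beyond EBLN3P, had a log2 ratio of 0.01 (-0.03 to 0.05) from 8633 and 7969 counts, while PAX5 had 1.54. The pseudogene EBLN3P had 0.08 (-0.02 to 0.18). On the other side MELK, a mitotic kinase gene, had 0.13 (0.02 to 0.25). ZCCHC7 was the most abundant of these 3 per length, at 270.3 and 269 RPKM.

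Over all 9 members, 36 neighbouring genes were listed, the nearest 2 with a row in the table on each side. Of these, 13 had 0 counts in both libraries and 18 had at least 10 counts. Of the 18, 0 were called in either direction, near the share of 1.4% over all features with at least 10 counts. All 4 neighbours of PAX1 and all 4 of PAX9 had 0 counts in both libraries, among them the homeobox genes NKX2-2 and NKX2-8. PAX2 and PAX4, in contrast, had 0 counts beside abundant neighbours. NDUFB8, a respiratory complex I gene among the 2 nearest on its side of PAX2, though not the nearest, had 904 and 953 counts. SND1, a nuclease-domain protein gene next to PAX4, had 5966 and 5546. PAX6 lay beside ELP4 (log2 ratio -0.14, -0.36 to 0.08) and IMMP1L (-0.11, -0.71 to 0.50).

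For the endogenous gene, the 300 bases around the RefSeq start of PAX5 are shown because the control library held PAX5 transcript (chr9:37034219-37034518, minus strand, GRCh38.p14, from 250 bases before to 50 after the start). Capitals mark the match to TATAAA.
PAX5 promoter window: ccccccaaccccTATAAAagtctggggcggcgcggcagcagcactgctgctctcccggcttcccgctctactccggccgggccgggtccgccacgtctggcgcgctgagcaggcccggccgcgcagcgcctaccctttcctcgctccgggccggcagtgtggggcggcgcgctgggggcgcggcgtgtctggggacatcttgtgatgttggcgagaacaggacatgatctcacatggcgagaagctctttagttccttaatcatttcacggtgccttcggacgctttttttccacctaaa
This window holds 30 CG dinucleotides and 65.0% G and C, beside medians of 14 and 58.7% over 35116 windows of 300 bases. TATAAA was searched on both strands and lies in 1 of 19 windows of 8 PAX genes, that of PAX5, and in 11.5% of all windows. The match in the PAX5 window begins at position -238 from the RefSeq start, in the printed direction. In that direction alone, 7.33% of all windows hold TATAAA. Whether this match acts in transcription of PAX5 was not tested. The counts do not show where transcription started.

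Proteins that PAX factors are known to bind formed a list of 15 genes, all with at least 10 counts, of which 1 was called higher and 0 lower, beside 1.4% of all features called. That gene was TLE3, a Groucho-family corepressor, with 306 and 95 counts and a ratio of 2.99-fold (2.37 to 3.81). The other Groucho relatives were not called. TLE4, a known corepressor of PAX5, had a log2 ratio of 0.10 (-0.06 to 0.26) from 714 and 619 counts, TLE1 had -0.15 (-0.24 to -0.06) and TLE2 had 0.60 (0.11 to 1.09). The short family member TLE5 had -0.05.

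Chromatin partners had small ratios. SMARCA4, the BRG1 remodeller gene, had a log2 ratio of 0.27 (0.22 to 0.33) from 7071 and 5431 counts, and RB1, the retinoblastoma gene, had 0.23 (0.17 to 0.29). The acetyltransferase genes EP300 and CREBBP had 0.39 and 0.29, and the corepressor gene NCOR1 had 0.19. The partners named for PAX proteins, PAXIP1 (PTIP) and PAXBP1, had -0.01 (-0.18 to 0.16) and 0.14 (-0.05 to 0.33). In all, 8 of 15 intervals lay above 0 and 1 below, with a median of 0.14. Long genes had higher ratios in general: in 10 groups of features by length, the median log2 ratio went from -0.21 in the shortest to 0.19 in the longest. With the median of its length group subtracted from each gene, the median of the partners was 0.07. The length group that holds PAX5 had a median of 0.03, and PAX5 had a log2 ratio of 1.51 after that median was subtracted.

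The sine oculis homeobox genes and their EYA and DACH cofactors, which work with PAX genes in eye, ear and kidney, were mostly not detected. Of 12 such genes, 8 had 0 counts in both libraries and 3 had at least 10 counts, with 0 called beside 1.4% of all features. These were SIX5 (242 and 220 counts), SIX4 (50 and 58) and the phosphatase gene EYA3 (267 and 255), and EYA4 had 2 and 0 counts.

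Homeobox genes of the paired class that lack a paired domain were a list of 34, of which 21 had 0 counts in both libraries and 8 had at least 10 counts. None was called lower, beside 0.0517% of all features. SHOX2 had 198 and 174 counts (log2 ratio 0.08, -0.22 to 0.38). PITX1 had 91 and 127 (-0.59, -0.99 to -0.19) and OTX1 74 and 48 (0.52, -0.02 to 1.07).

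Genes known to be activated by PAX5 in B cells were a list of 18, of which 15 had at least 10 counts, 4 were called higher and 0 lower, beside 1.34% and 0.0517% of all features. The list was chosen with results of these data known, so its direction is a description. Besides BACH2 and SPIB these were CD72, a surface receptor gene (882 and 209 counts, 3.92-fold), and KLHL14, a ubiquitin ligase adaptor gene (463 and 69 counts, 6.24-fold). PAX5 itself, at 2.91-fold, lay between SPIB and BACH2. CIITA, the regulator of class II antigen presentation genes, had a log2 ratio of 0.64 (0.50 to 0.78) from 1118 and 665 counts, below the rule. CD79A (5256 and 4950 counts) had -0.02, and BLNK, an adaptor gene, had -0.23. NEDD9, an adhesion scaffold gene, had 43 and 86 counts and -1.11 (-1.67 to -0.56), opposite to the name of the list. In all, 9 of 15 intervals lay above 0 and 2 below, and the median was 0.64, or 0.59 after the subtraction by length.

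**Figure D5:**
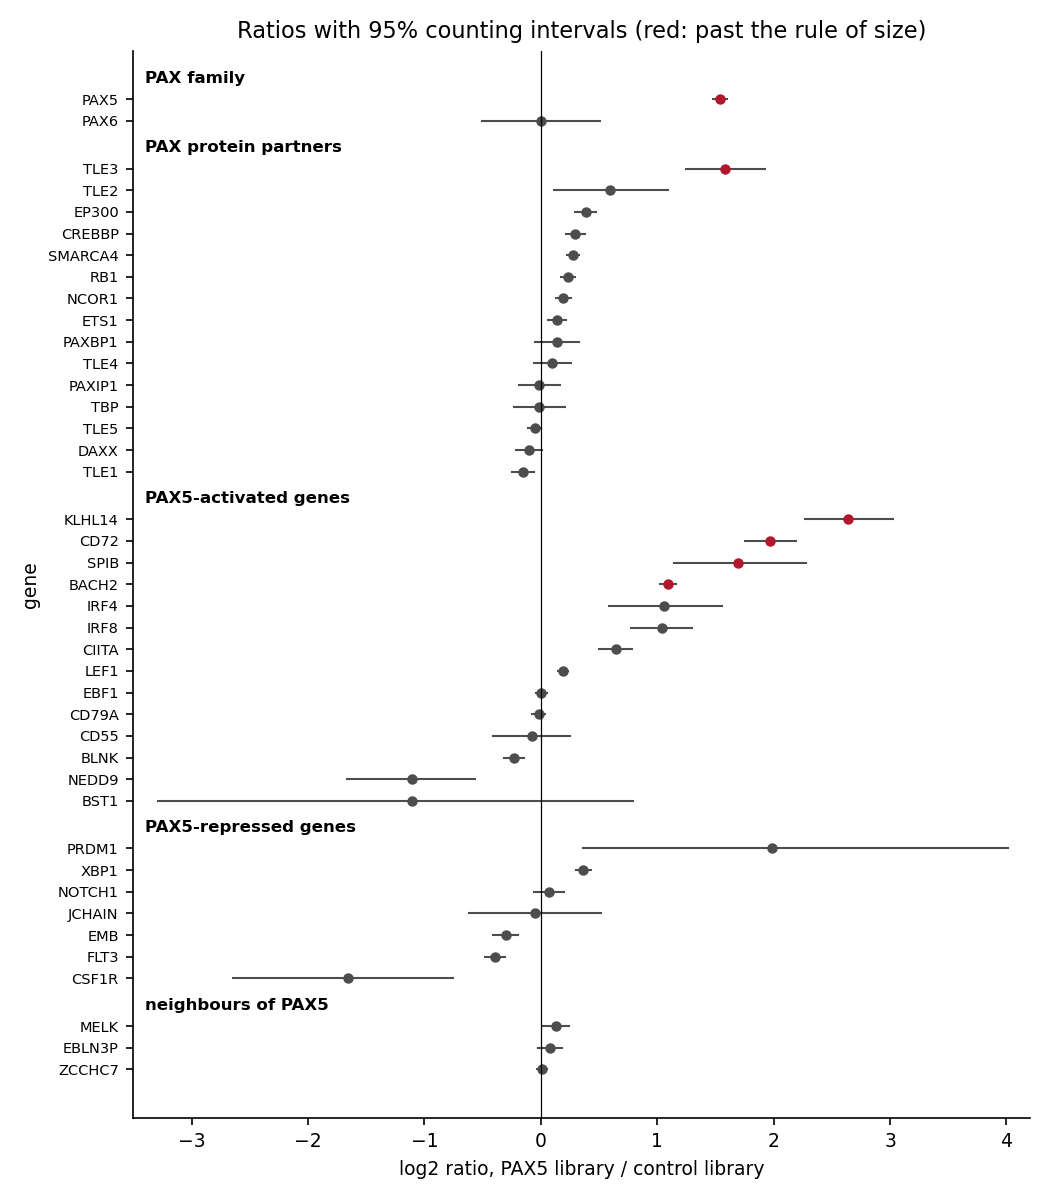
Log2 ratios of the PAX5-IRES-GFP library over the control library with 95% counting intervals for PAX5 and PAX6, partners of PAX proteins, genes activated or repressed by PAX5, and neighbours of PAX5, for the genes reported that had at least 10 counts. Red points are past the rule of size: PAX5, TLE3, KLHL14, CD72, SPIB and BACH2. The bar of BST1 runs to -3.29 and that of PRDM1 to 4.01.

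Genes known to be repressed by PAX5 were a list of 9, of which 7 had at least 10 counts. None of the 7 was called, beside 1.4% of all features. FLT3, a progenitor receptor gene, had a log2 ratio of -0.40 (-0.48 to -0.31) from 2096 and 2562 counts, and EMB, an adhesion protein gene, had -0.30 (-0.41 to -0.19). XBP1, a plasma cell regulator, lay on the other side with 0.37 (0.30 to 0.43), and NOTCH1 had 0.07 (-0.06 to 0.20). PRDM1, the gene of the plasma cell factor BLIMP1, had 17 and 4 counts and 1.98 (0.37 to 4.01), opposite to the name of the list. CSF1R, a macrophage receptor gene that is also among the myeloid markers, had 14 and 41 counts and -1.66 (-2.65 to -0.75). CD28 and CCR2 had 0 counts in both libraries. In all, 2 of 7 intervals lay above 0 and 3 below, and the median was -0.05, or -0.12 after the same subtraction by length.

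Depth was alike in both, with 11944765 deposited counts for PAX5-IRES-GFP and 10997864 for the control. The labelled cell type was checked against markers. Of 13 B-precursor markers 12 had at least 10 counts and 0 were called, beside 1.4% of all features. Intervals lay above 0 for 5 and below 0 for 3. DNTT, the terminal transferase gene, had 792 and 904 RPKM and RAG1 had 415 and 442 RPKM, both among the 3. IGLL1 was the other of the 3, with a log2 ratio of -0.26. Among the 5 above 0 were MME (0.76) and CD79B (0.42). The median log2 ratio of the 12 was 0.04. VPREB1 had only 17 and 7 counts, and CD34 had 1 and 0. Among 6 T-cell markers, CD3E had 1 count, in the control library, and the other 5 had none. The 10 myeloid markers summed to 73.4 and 138 CPM, most of it MPO (554 and 1138 counts, log2 ratio -1.14, -1.29 to -0.997). Of the 4 with at least 10 counts, 0 were called, 3 had intervals below 0 and 0 above. The MPO interval stopped just short of the 2-fold bound. FCGR3A, S100A8, S100A9 and ELANE had 0 counts in both libraries. The part of these myeloid transcripts in the values of the PAX5-repressed genes was not tested. The 4 natural killer markers summed to 2.27 and 4.43 CPM, and the 7 erythroid and megakaryocyte markers to 1.68 and 2.35 CPM.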

How the data were processed

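Total RNA of GFP-sorted REH cells was sequenced as 1 library per group. The authors deposited raw counts of reads per gene with Entrez numbers and gene lengths, made with featureCounts and the hg19 build, as the submitters' processing notes list them. The sources used here name no aligner, version or strand setting. The series table and the single-library files held the same 51404 values.

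Libraries were scaled by TMM (edgeR 4.0.16, R 4.3.3) on features with at least 10 counts. Symbols came from a RefSeq table of GRCh38.p14, by which 23696 of 25702 features matched, and coding sequences from GENCODE. Intervals are exact (scipy 1.17.1) at the 95% level, and they and the limits of 3 counts cover counting error only. The rule of size was tested on simulated data.

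The members and the 12 gene lists (142 genes) were chosen with earlier results of these data known. Named were all members, their neighbours, list members past the rule, up to 4 others per list by mean RPKM, the 5 genes nearest to PAX5 on log2 CPM and its neighbours in RPKM rank. Other named genes were chosen after their values were seen. Some genes of the lists and neighbours are counted but not reported here by name. Alternatives were 3 other scalings, other count minimums and folds, a point ratio, length centring, the single-library files and other measures of level and detection.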

Additional observations from a re-analysis of the deposited data

How the results depend on the processing

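Under total counts, DESeq2 1.42.0 size factors, upper-quartile factors, other count minimums, length centring and the single-library files, PAX5 was the 1 member past the rule. With a bound at or beyond 4-fold its log2 ratio of 1.54 did not pass, and 0 members did. Over all lists, 6 genes were called higher and 0 lower. The count of higher genes became 2 with the 4-fold bound and 10 with a point ratio of 2-fold. The count of lower genes became 1 with total counts, 1 with upper-quartile factors, 2 with a 1.5-fold bound and 4 with the point ratio. Of the neighbours, 1 passed with the point ratio (KLHDC7A, 10 and 2 counts). The rank of PAX5 in the PAX5-IRES-GFP library was 261 by deposited length, 142 by CPM without length and 61 with PAX5 at its coding length. In the control library, whose cassette carried no PAX5, it went from 1220 to 257 at the coding length. That alternative was added after the data were seen and shortens PAX5 only. It stands in for a planned coding length from a protein table, which was not run. The causes of the other changes were not tested. No paired analysis was possible because each group had 1 library. Of all alternatives, 46 of 58 for the main results and 78 of 80 for single genes and list medians stayed within their limits. The 2 of these 80 that did not were list medians of log2 ratios. The median of the PAX5-repressed genes went from -0.05 to -0.18 with a count minimum of 50. That of the homeobox genes without a paired domain went from 0.34 to 0.52 with no count minimum. Depth limits the 7 members with 0 to 2 counts, for which no ratio is given.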
